A study of Mus musculus with 12 samples.

Results

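The let-7 family was followed across mouse embryonic fibroblasts (MEFs) of a C57BL/6 background, either ATF6aKO or ATF6aWT, given 2 µg/mL tunicamycin for 12 h or 24 h or left untreated. The members are mmu-let-7a, mmu-let-7b, mmu-let-7c, mmu-let-7d, mmu-let-7e, mmu-let-7f, mmu-let-7g, mmu-let-7i and mmu-miR-98. They were picked by name among the array's non-control rows. They are 9 of the 650 miRNAs on the array, read by 18 of its 1857 probes and by 180 of the 13000 non-control spots of each array. All 9 were among the 175 miRNAs bright enough to be tested.

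A miRNA is a short RNA cut from a hairpin precursor. It guides Argonaute proteins to messenger RNAs that pair with its seed, the bases next to its 5′ end, and lowers their output. The let-7 miRNAs are known for rising as cells differentiate and for holding down growth genes such as Lin28, Hmga2 and Ras genes. LIN28 proteins block the maturation of most let-7 precursors. miR-98 carries another name but belongs to the same seed family.

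The 9 mature sequences are shown because the members differ by few bases, so that each is told from its relatives by a few positions outside the seed. They come from RefSeq (GRCm38.p6), where all 9 names were found, and are written 5′ to 3′ with the seed, bases 2 to 8, in capitals.
mmu-let-7a: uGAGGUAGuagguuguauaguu
mmu-let-7b: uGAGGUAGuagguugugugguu
mmu-let-7c: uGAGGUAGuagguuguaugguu
mmu-let-7d: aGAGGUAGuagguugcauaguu
mmu-let-7e: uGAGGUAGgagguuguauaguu
mmu-let-7f: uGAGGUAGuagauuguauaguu
mmu-let-7g: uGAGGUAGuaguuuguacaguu
mmu-let-7i: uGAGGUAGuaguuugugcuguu
mmu-miR-98: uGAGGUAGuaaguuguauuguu

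All 9 are 22 bases long and share the seed GAGGUAG. Counted from the 5′ end against mmu-let-7a, mmu-let-7e differs only by U9G, mmu-let-7f by G12A and mmu-let-7c by A19G. Changes in mmu-let-7b are A17G and A19G, in mmu-let-7d U1A and U16C, in mmu-let-7g G12U and U18C, and in mmu-miR-98 G11A and A19U. The most distant from mmu-let-7a is mmu-let-7i, with G12U, A17G, U18C and A19U. Probes of such close relatives can share signal, and how much they did was not tested.

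RefSeq lists 12 hairpins that hold the mature sequence of a member, most of them in clusters. The precursor of mmu-let-7i lies alone on chromosome 10 (chr10:122985640-122985724, minus strand, GRCm38.p6), with no other member near it and no other annotated gene spanning it. That of mmu-let-7e lies on chromosome 17 (chr17:17830352-17830444, plus strand) within the span of the protein-coding gene Spaca6, with Mir125a 0.367 kb away. These hairpins are shown because their products moved in opposite directions; the capitals mark the mature strand.
Mirlet7i: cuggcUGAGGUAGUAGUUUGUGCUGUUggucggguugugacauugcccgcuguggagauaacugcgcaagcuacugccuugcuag
Mirlet7e: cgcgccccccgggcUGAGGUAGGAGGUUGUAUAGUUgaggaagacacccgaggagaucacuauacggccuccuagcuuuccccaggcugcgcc

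Elsewhere, Mirlet7d, Mirlet7f-1 and Mirlet7a-1 share the minus strand of chromosome 13, with Mirlet7d and Mirlet7a-1 2.064 kb apart. Mirlet7c-2 and Mirlet7b lie 0.621 kb apart within the long noncoding gene Lncppara on chromosome 15, and Mirlet7c-1 lies 0.656 kb from Mir99a on chromosome 16. Mirlet7g lies within the span of Wdr82 on chromosome 9, and Mirlet7f-2 and Mir98 lie 0.785 kb apart within that of Huwe1 on chromosome X. Mirlet7a-2 lies on chromosome 9 within the long noncoding gene Mir100hg, 5.211 kb from Mir100 and 45.114 kb from Mir125b-1. mmu-let-7a, mmu-let-7c and mmu-let-7f are each found in 2 of the listed hairpins, so their signals do not tell which precursor they came from.

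ATF6aKO cells lack ATF6a, and ATF6aWT cells are wild type for it. ATF6a is a sensor of the endoplasmic reticulum (ER) that becomes a transcription factor when unfolded proteins build up there, and tunicamycin causes that by blocking N-linked glycosylation. The 6 groups were ATF6aKO cells untreated, with 2 µg/mL tunicamycin for 12 h and with it for 24 h, and ATF6aWT cells in the same 3 states. Each group had 2 arrays from experiments described as independent, hybridised with 100 ng of Cy3-labelled total RNA. The labels do not say how the lines were derived, whether each is 1 clone, or whether untreated cells received solvent. ATF6a mRNA is not on a miRNA array, so the genotype could not be checked here. Of 10 fibroblast and mesenchymal markers on the array, 7 were well above background on all 12 arrays and miR-145 on none. Of 14 markers of other cell types, 13 were above it on no array, and the exception, miR-206, was above it on 3; of 7 markers of pluripotent cells, which have little let-7, 6 were above it on none and miR-294 on 2.

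Values are log2 of the processed spot intensity divided by the array's 75th percentile over 87 probes that were well above background everywhere, called log2 scaled signal below. They compare 1 miRNA between arrays and do not rank miRNAs against each other, since probes differ in brightness. Between 85 and 171 miRNAs were well above background per array. The 4 untreated arrays were on 1 slide, in scanning runs 1 and 2, and the 8 treated arrays on another, in runs 3 and 4, so that slide and treatment cannot be told apart. ATF6aKO and ATF6aWT arrays occupied different rows of the slides, so that position and genotype cannot be told apart either. Genotypes and treatment times can be compared within a run, and those values are given below. The limma tests reported for them did not pair arrays of the same run. One array stood apart for this family: the mean log2 scaled signal of the 8 members measured on every array was -1.08 on replicate 2 of the ATF6aKO 12 h group and -0.52 on replicate 1, and lay between -0.80 and -0.58 on the other 10. The median gap between the replicates of a member was 0.63 in that group and 0.06 to 0.18 in the other 5.

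Both probes of 7 members were well above background on all 12 arrays. One of the 2 probes of mmu-let-7g missed that mark on 1 ATF6aKO 12 h array and 1 ATF6aWT 24 h array. Both probes of mmu-miR-98 missed it on the 4 arrays of run 4, which left 1 measured array in each treated group. Its values are therefore given with that limit. Over the 12 arrays, mmu-let-7i ranged over 1.54 log2 units and mmu-let-7e over 1.13, and the other 7 ranged over 0.50 to 0.85.

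**Figure D1:**
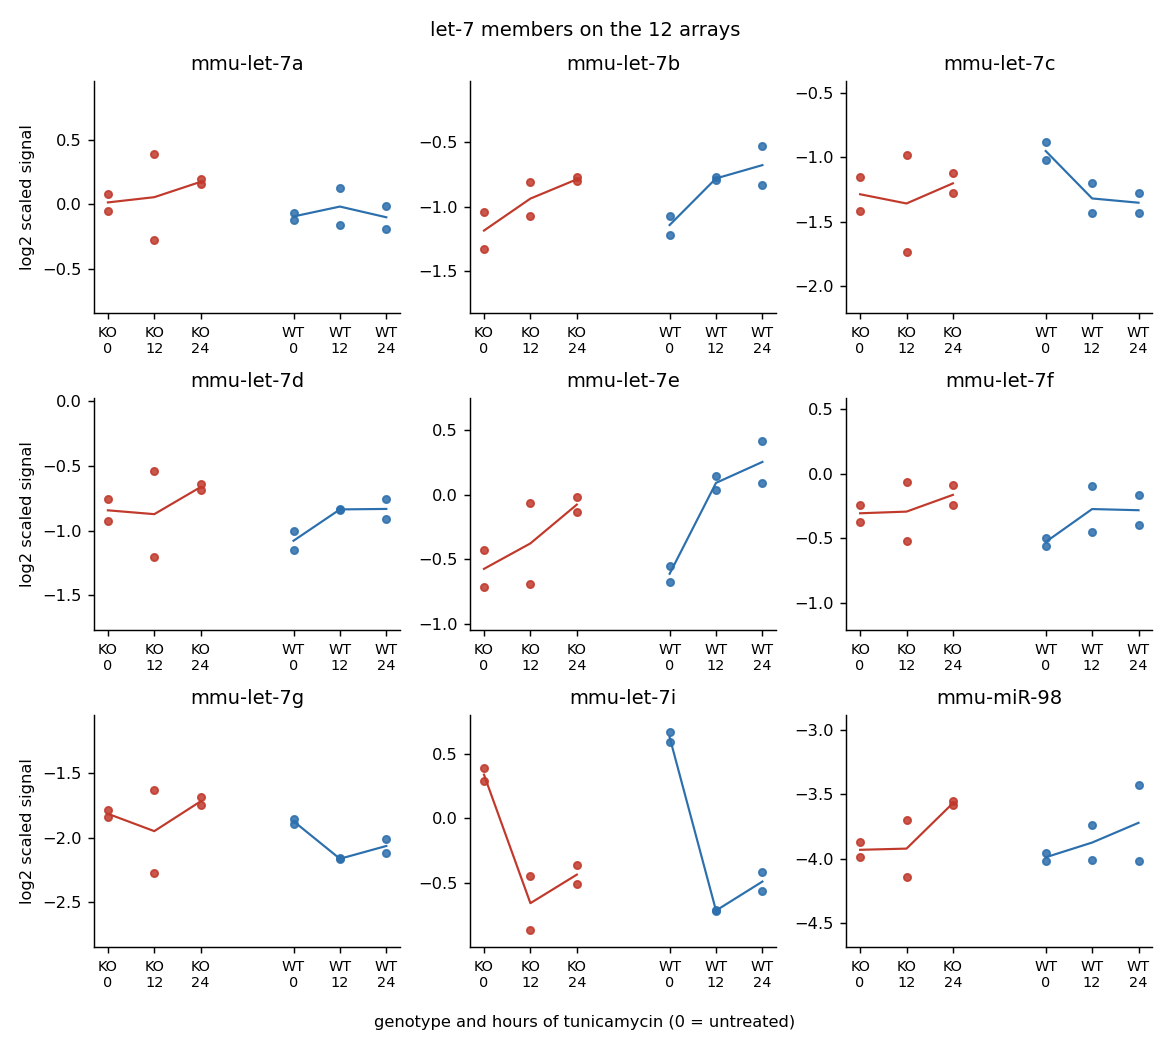
Log2 scaled signal of each member on each array (points) with group means (lines), for ATF6aKO (red) and ATF6aWT (blue) cells after 0, 12 or 24 h of tunicamycin; each vertical axis spans the same 1.8 log2 units at its own level. mmu-let-7i is high on all 4 untreated arrays and low on all 8 treated ones.

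The question behind the treatment comparisons is which miRNAs respond to tunicamycin. In this family mmu-let-7i fell in both genotypes and at both times. In ATF6aKO cells its log2 scaled signal was 0.29 and 0.39 untreated, -0.45 and -0.87 at 12 h, and -0.36 and -0.51 at 24 h. ATF6aWT cells gave 0.59 and 0.67 untreated, -0.71 and -0.72 at 12 h, and -0.56 and -0.42 at 24 h. All 8 treated arrays lay below all 4 untreated arrays, so the treated and untreated values did not overlap in either genotype. In bulk RNA of this kind, less RNA per cell and fewer cells holding it cannot be told apart.

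In ATF6aKO cells mmu-let-7i fell by 1.00 at 12 h (log2, SE 0.14, adjusted p = 0.00301) and by 0.77 at 24 h (SE 0.14, adjusted p = 0.0107), in limma with Benjamini-Hochberg adjustment over the 175 miRNAs. This left 50.1% of the untreated signal at 12 h and 58.4% at 24 h. In ATF6aWT cells it fell by 1.34 at 12 h (SE 0.14, limma adjusted p = 0.000378) and by 1.12 at 24 h (SE 0.14, limma adjusted p = 0.000849), leaving 39.4% and 46.0%. Its 2 probes gave similar sizes. In ATF6aKO cells each fell by 1.00 at 12 h, and they read -0.90 and -0.65 at 24 h, against -1.52 and -1.17 at 12 h and -1.18 and -1.05 at 24 h in ATF6aWT cells. Among the 57 miRNAs well above background on every array, the change of mmu-let-7i ranked sixth from the lowest in ATF6aKO cells at 12 h and eighth at 24 h, against the third and the fourth place in ATF6aWT cells. Without the outlying ATF6aKO 12 h array the change at 12 h in ATF6aKO cells was -0.79 (limma adjusted p = 0.00376). The call at 24 h in ATF6aKO cells was lost without replicate 2 of the untreated group (-0.72, limma adjusted p = 0.0758) or of the 24 h group (-0.70, adjusted p = 0.0777). Scaling each array on all probes, quantile normalization and the deposited table each kept the direction in all 4 comparisons but ended all 4 calls (lowest limma adjusted p = 0.533, 0.155 and 0.303). Those settings called 0 to 8 of all 175 miRNAs in each comparison, against 18 to 78 with the scaling first described. The deposited table was fitted without scaling between arrays. The summed signal ended both calls in ATF6aKO cells (limma adjusted p = 0.101 and 0.269). The call at 24 h there was also lost with normexp (adjusted p = 0.120) and with the brightest probe (0.123), and the call at 12 h when only the groups compared were fitted (0.169).

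mmu-let-7e moved the other way. In ATF6aKO cells it read -0.72 and -0.43 untreated, -0.06 and -0.69 at 12 h, and -0.13 and -0.02 at 24 h. ATF6aWT cells gave -0.67 and -0.55 untreated, 0.04 and 0.15 at 12 h, and 0.09 and 0.42 at 24 h. The treated ATF6aWT arrays all lay above the untreated ones, as did the ATF6aKO arrays at 24 h, while the ATF6aKO arrays at 12 h overlapped the untreated pair. The rise passed the test in ATF6aWT cells at 12 h (log2 change 0.70, SE 0.22, limma adjusted p = 0.0325, 1.63-fold) and at 24 h (0.87, SE 0.22, adjusted p = 0.0141, 1.82-fold). In ATF6aKO cells neither the change of 0.20 at 12 h (adjusted p = 0.591, limma) nor that of 0.50 at 24 h (adjusted p = 0.211) did. The call at 24 h in ATF6aWT cells was lost without either untreated ATF6aWT array (limma adjusted p = 0.0858 and 0.0535) or without replicate 2 at 24 h (0.70, adjusted p = 0.0913). That at 12 h was lost without any 1 of the 4 arrays compared, with changes of 0.64 to 0.77 and limma adjusted p from 0.0779 to 0.146, and marginally without either ATF6aKO 24 h array (adjusted p = 0.0502). Over 25 alternative settings the mmu-let-7e call in ATF6aWT cells was kept in 12 at 12 h and in 16 at 24 h, always above 0. The lowest changes were 0.032 at 12 h, with scaling on all probes (limma adjusted p = 1), and 0.30 at 24 h, in the deposited table (adjusted p = 0.813).

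mmu-let-7b, made from the chromosome 15 cluster, read -1.32 and -1.04 untreated, -0.80 and -1.07 at 12 h and -0.80 and -0.77 at 24 h in ATF6aKO cells. The ATF6aWT values were -1.21 and -1.07 untreated, -0.79 and -0.76 at 12 h and -0.83 and -0.53 at 24 h. The ATF6aWT values did not overlap between treated and untreated arrays. It passed the test in ATF6aWT cells at 24 h (log2 change 0.46, SE 0.14, limma adjusted p = 0.0365, 1.38-fold). It did not at 12 h (0.36, adjusted p = 0.0793), nor in ATF6aKO cells at 12 h (0.25, adjusted p = 0.288) or 24 h (0.40, adjusted p = 0.133), all by limma. The call at 24 h was kept in 8 of 25 alternative settings, against 22 of 25 for mmu-let-7i, and the deposited table, not scaled between arrays, turned its direction (-0.082). It was lost without either untreated ATF6aWT array (limma adjusted p = 0.173 and 0.0677) and without replicate 2 at 24 h (0.31, adjusted p = 0.220), and also without any 1 ATF6aWT 12 h or ATF6aKO 24 h array (adjusted p = 0.0567).

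None of the other 6 members passed the test in any of the 4 comparisons. Their log2 changes lay between -0.13 and 0.04 in ATF6aKO cells at 12 h, between 0.08 and 0.36 in ATF6aKO cells at 24 h, between -0.37 and 0.25 in ATF6aWT cells at 12 h and between -0.40 and 0.27 in ATF6aWT cells at 24 h. The most negative of them was mmu-let-7c in ATF6aWT cells. It read -1.02 and -0.88 untreated, -1.20 and -1.43 at 12 h and -1.43 and -1.28 at 24 h, with no overlap between treated and untreated arrays and adjusted p = 0.259 at 12 h and 0.240 at 24 h (limma). mmu-let-7g also lay lower on all treated ATF6aWT arrays, by 0.29 at 12 h and 0.19 at 24 h in the means (limma adjusted p = 0.251 and 0.494). With either ATF6aKO 12 h array left out, which narrows the shared spread, mmu-let-7g passed at 12 h (adjusted p = 0.00539) and at 24 h (0.0302) and mmu-let-7c at 24 h (0.0445), all by limma. With replicate 1 of that group left out, mmu-let-7d and mmu-let-7g passed in ATF6aKO cells at 12 h (-0.37 and -0.46). In ATF6aWT cells mmu-let-7d and mmu-let-7f lay higher on all treated arrays, with changes of 0.24 to 0.25 and limma adjusted p between 0.315 and 0.412. For members that did not pass, such separation is no sign of a change, as its share among all miRNAs is not given. The mean of mmu-let-7a moved by 0.16 at most.

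**Figure D2:**
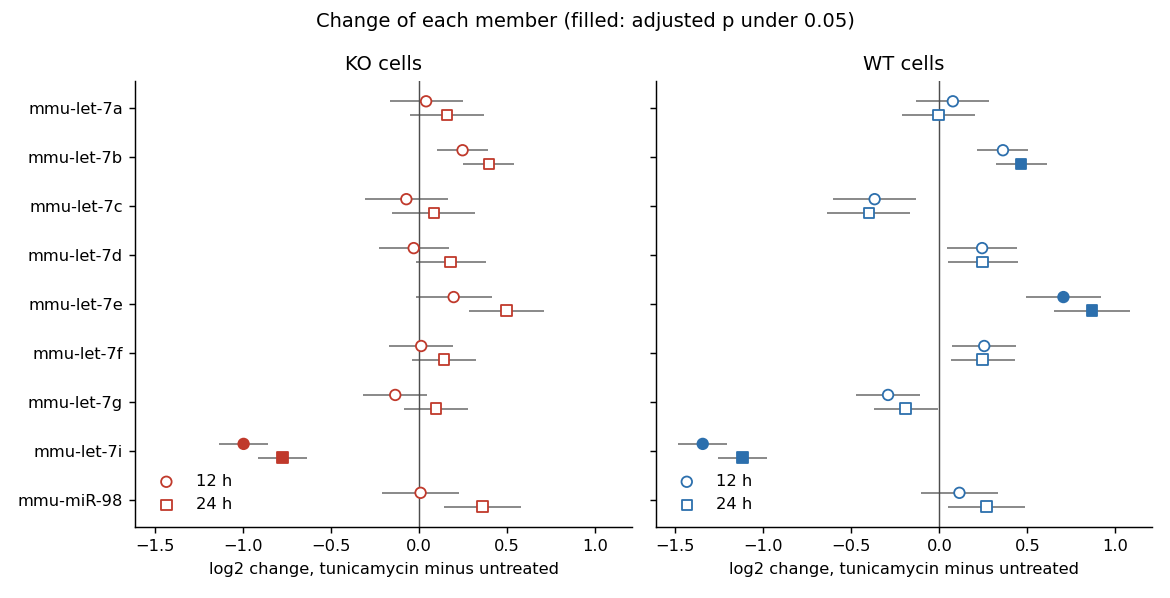
Log2 change of each member after 12 h (circles) or 24 h (squares) of tunicamycin relative to untreated cells, in ATF6aKO cells (left) and ATF6aWT cells (right), with limma standard errors as bars; filled symbols passed an adjusted p of 0.05. mmu-let-7i is the only filled symbol left of 0, from -1.34 to -0.77 over the 4 comparisons.

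Set against all tested miRNAs, in ATF6aKO cells at 12 h 0 of 9 members rose, where 2.86% of all 175 did (limma, adjusted p under 0.05). There 1 of 9 fell, where 14.3% of all did. Unadjusted, 1 member passed, beside 51 of all 175. At 24 h in ATF6aKO cells 0 of 9 rose, with 2.29% of all doing so, and 1 of 9 fell, with 8% of all. Unadjusted, 2 members passed there, beside 43 of all 175. In ATF6aWT cells 1 of 9 rose at 12 h, beside 6.29% of all, and 1 of 9 fell, beside 38.3%. At 24 h 2 of 9 rose, beside 7.43%, and 1 of 9 fell, beside 33.7%. The share of members that fell in ATF6aWT cells was thus below that of all tested miRNAs, as a description with no test. The 175 include miRNAs dim on some arrays, while 8 of the 9 members were measured on all, and this was not matched. The median log2 change of the members was 0.01 in ATF6aKO cells at 12 h and 0.16 at 24 h, against -0.09 and 0.00 for all tested miRNAs. In ATF6aWT cells it was 0.11 at 12 h and 0.25 at 24 h, against -0.27 and -0.21 for all. Among only the 57 miRNAs well above background on every array, the median was -0.09 and 0.14 in ATF6aKO cells. In ATF6aWT cells it was -0.20 at 12 h and 0.01 at 24 h, so the gaps to the members at 24 h were smaller. These medians move with the scaling: over 26 alternatives the median of all miRNAs ranged from -0.77 to 0.30 in ATF6aKO cells and from -0.56 to 0.45 in ATF6aWT cells.

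**Figure D3:**
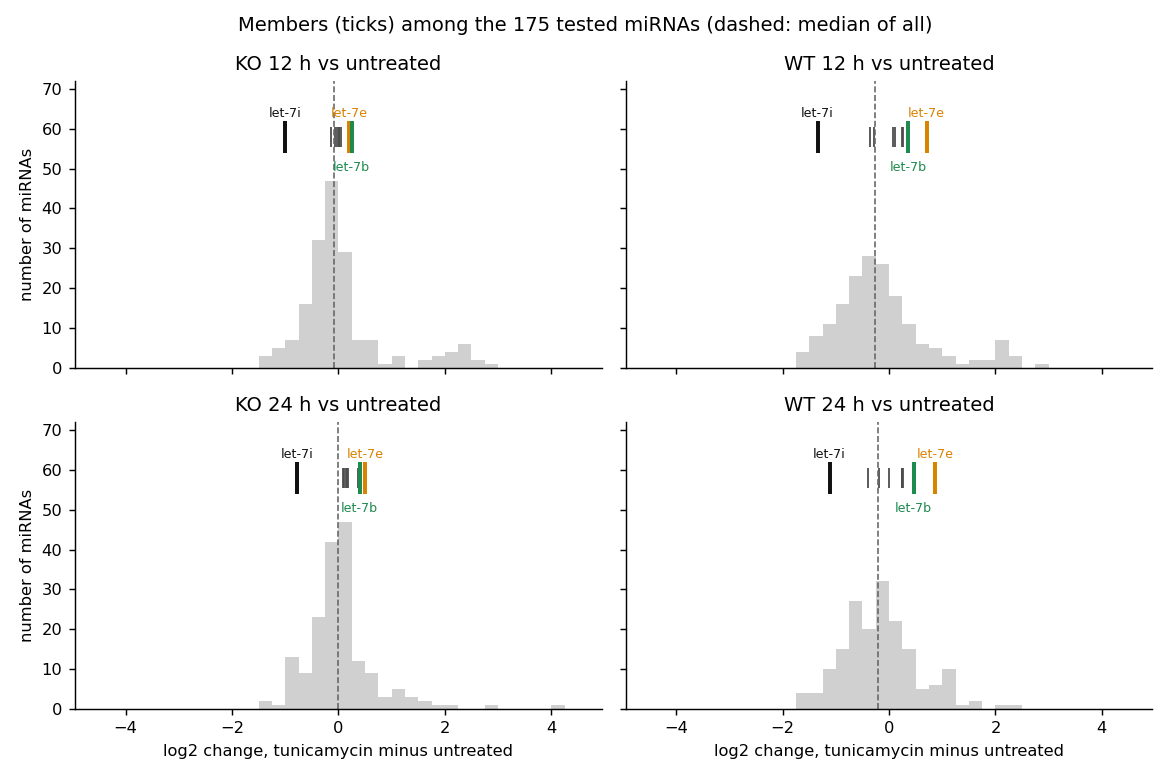
Histograms of the log2 change of all 175 tested miRNAs in the 4 treatment comparisons, ATF6aKO on the left and ATF6aWT on the right, with the 9 members as ticks and the median of all miRNAs as a dashed line. mmu-let-7i lies in the lower part of each distribution, from -1.34 to -0.77, apart from the other 8 members, which lie between -0.40 and 0.87.

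Because members are compared on the same array, a change relative to the family does not depend on how the array was scaled. Each array was therefore also centred on the mean of the 8 members measured everywhere, as decided once the values were known. Centring shares changes out: a member that falls raises the others by the same sum. On this scale mmu-let-7i stood at 1.08 and 1.01 in untreated ATF6aKO cells, 0.07 and 0.21 at 12 h, and 0.22 and 0.13 at 24 h. The ATF6aWT values were 1.35 and 1.33 untreated, 0.04 and 0.03 at 12 h, and 0.23 and 0.17 at 24 h. Centring removes any shift that the 8 members share, so the outlying ATF6aKO 12 h array could not stand apart in their mean. With that shift removed, the median gap between replicates in that group was 0.11 in place of 0.63.

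Relative to the family, mmu-let-7i fell by 0.90 at 12 h and 0.87 at 24 h in ATF6aKO cells, and by 1.30 at 12 h and 1.13 at 24 h in ATF6aWT cells (SE 0.09 each; limma adjusted p = 0.000531, 0.000534, 5.17e-05 and 0.000105 in that order). Each of these calls was kept with any 1 array left out. mmu-let-7e rose by 0.75 at 12 h and 0.85 at 24 h in ATF6aWT cells (SE 0.10; limma adjusted p = 0.00128 and 0.000626), calls also kept with any array left out. The summed signal on this scale gave 0.72 at 12 h (limma adjusted p = 0.0537). In ATF6aKO cells its rise of 0.40 at 24 h passed (limma adjusted p = 0.0325) and was kept in 7 of 12 fits that left out an array but in 1 of 4 other ways of computing the values on this scale, while 0.29 at 12 h did not pass (adjusted p = 0.108). mmu-let-7b rose by 0.41 at 12 h and 0.45 at 24 h and mmu-let-7d by 0.29 at 12 h in ATF6aWT cells, and mmu-let-7c fell by 0.41 there at 24 h (limma adjusted p between 0.0191 and 0.0266). These 4 calls were each kept in 2 of those 4 ways.

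In all, on this scale 1 of 9 members was called in ATF6aKO cells at 12 h, beside 16% of all miRNAs, and 2 of 9 at 24 h, beside 16.6%. In ATF6aWT cells 4 of 9 were called at 12 h, beside 38.9%, and 4 of 9 at 24 h, beside 37.1%. With the replicate block on this scale 2 and 2 were called in ATF6aKO cells and 6 and 5 in ATF6aWT cells. The share of all miRNAs called with that block is not given here, so these counts are no result about the family. The added members were mmu-let-7b in ATF6aKO cells at 12 h (limma adjusted p = 0.0401), mmu-let-7c and mmu-let-7g in ATF6aWT cells at 12 h (0.0417 and 0.0384) and mmu-let-7d there at 24 h (0.0494).

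**Figure D4:**
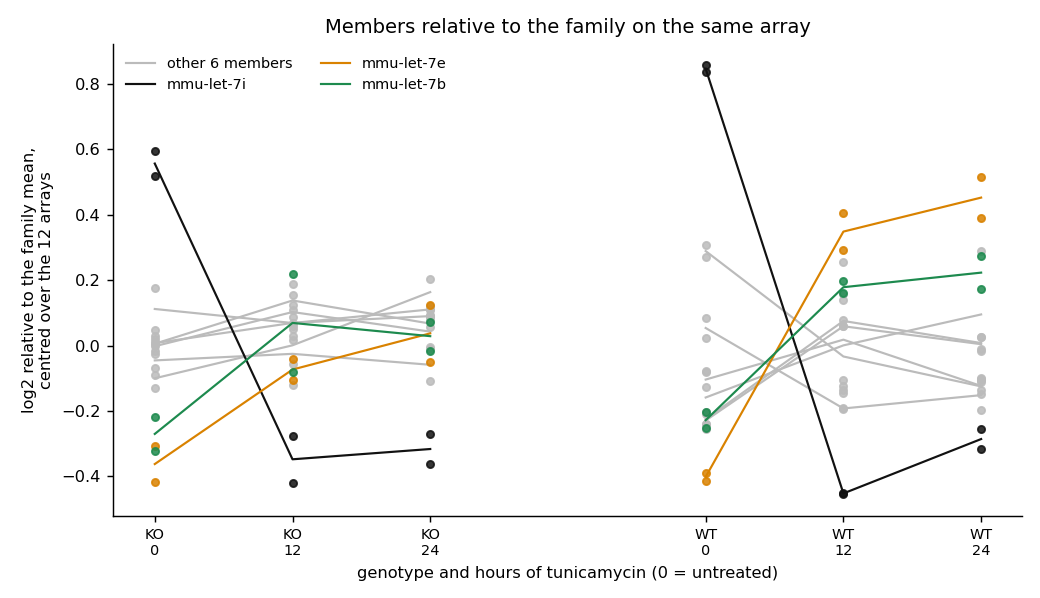
Log2 signal of each member relative to the mean of the family on the same array, centred on its own mean over the 12 arrays; points are arrays, lines join group means, and 6 members are drawn in grey. The fall of mmu-let-7i and, in ATF6aWT cells, the rise of mmu-let-7e stand clear of the gaps between replicates.

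The contrast between mmu-let-7i and its relatives was also followed over the alternative settings. Rescaling an array, adding a block or leaving out an array not compared leaves such a difference nearly or wholly unchanged by construction. A narrow range over those settings is therefore no support. With the array scaling first described, the change of mmu-let-7i minus the median change of the other 8 was -1.01 at 12 h and -0.94 at 24 h in ATF6aKO cells. In ATF6aWT cells it was -1.52 and -1.37. Over 26 alternatives this difference stayed between -1.09 and -0.89 in ATF6aKO cells at 12 h, -0.996 and -0.77 at 24 h, -1.67 and -1.25 in ATF6aWT cells at 12 h, and -1.39 and -1.17 at 24 h. The change of mmu-let-7i itself ranged more widely, for example from -2.39 to -0.79 in ATF6aKO cells at 12 h.

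**Figure D5:**
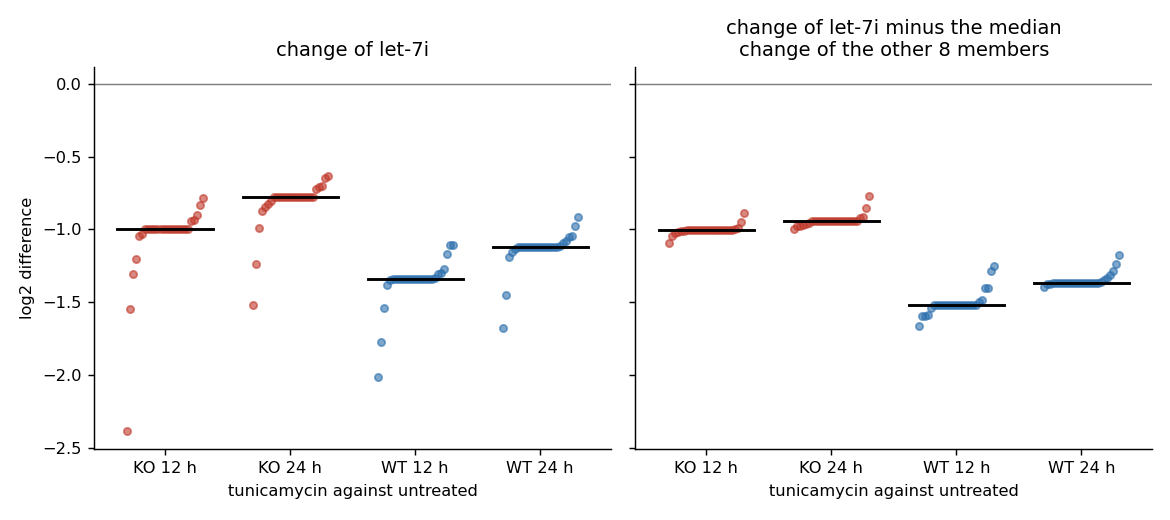
Log2 change of mmu-let-7i (left) and the same minus the median change of the other 8 members (right) in the 4 treatment comparisons; each point is 1 of 26 alternative settings and the black line is the value reported first. All points lie below 0, and those on the right keep within -1.67 to -0.77, in part by construction, since rescaling an array hardly moves them.

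Members close in sequence could differ in response. The closest relative of mmu-let-7i is mmu-let-7g, with 2 differing bases, and the change of mmu-let-7g was 0.86 to 1.05 log2 units higher in the 4 comparisons. mmu-let-7e, which differs from mmu-let-7a by a single base, changed by 0.16 to 0.87 more than mmu-let-7a. Over the 36 pairs of members, the mean gap in response had a median of 0.38 for the 4 pairs that differ by 1 base, 0.33 for the 10 that differ by 2, 0.22 for the 11 that differ by 3 and 0.50 for the 9 that differ by 4. The single pairs that differ by 5 and by 6 bases, both with mmu-let-7i, had gaps of 1.63 and 1.22. Among the pairs that differ by 4 bases, those with mmu-let-7i had gaps of 0.87 to 1.25 and the others 0.09 to 0.50. The gaps are a description over pairs that share members.

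Tested as well were 5 miRNAs of families known to share clusters with let-7 genes, namely miR-99a, miR-99b, miR-100, miR-125a-5p and miR-125b-5p. miR-100 fell in ATF6aKO cells at 12 h (log2 change -0.69, SE 0.12, limma adjusted p = 0.00915), while its change of -0.44 at 24 h had adjusted p = 0.0701. In ATF6aWT cells it fell at both times (-0.83 and -0.87, SE 0.12, limma adjusted p = 0.00150 and 0.00144), though run 4 left it with 1 measured array in each treated group. miR-125b-5p fell in ATF6aWT cells at 24 h (-1.03, SE 0.24, limma adjusted p = 0.0118). Its change of -0.88 in ATF6aKO cells at 24 h did not pass (SE 0.24, limma adjusted p = 0.0694). At 12 h it changed by -0.61 in each genotype, also not past the test. The genotypes did not differ in it at 24 h (0.16, SE 0.24, limma adjusted p = 0.836). miR-99a, whose hairpin lies beside Mirlet7c-1, was not well above background on any treated ATF6aWT array, and its values there were set to the floor. Its fall there is therefore a bound: at least 2.01-fold at 12 h and at least 1.52-fold at 24 h. The limma adjusted p (5.27e-05 and 4.22e-05) are for a change of -1.68 to the floor, without replicate spread in the treated groups. They do not test the bound. miR-99a was also lower in untreated ATF6aKO than in untreated ATF6aWT cells (-1.05, SE 0.11, limma adjusted p = 0.000580). Over the same 4 comparisons, the partners of mmu-let-7e on chromosome 17, miR-99b and miR-125a-5p, changed by -0.36 to 0.15 and by -0.51 to 0.06, with none past the test. Of 9 passenger strands listed for the members, 7 are on the array and none was bright enough to be tested.

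By root-mean-square difference of centred log2 values over the 12 arrays, the miRNAs outside the family closest to its mean were miR-25 (0.11), miR-16 (0.12), miR-151-5p (0.15), miR-107 (0.15) and miR-27a (0.16), out of 49 candidates. Those closest to mmu-let-7i alone, out of 56, were miR-199b* (0.16), miR-26a (0.16), miR-21 (0.17), miR-199a-3p (0.19) and miR-130a (0.22), and no member was among them. Of the fibroblast markers, which include miR-21 and miR-199a-3p, 9 were tested. In ATF6aKO cells 3 fell at each time and 6 did not pass, and in ATF6aWT cells 6 fell at each time and 3 did not pass (limma). The changes of miR-31 in ATF6aWT cells were 0.22 and 0.093, and those of miR-29a were -0.27 and -0.091. The summed scaled signal of the list, on a linear scale that its brightest probes dominate, was 31.6 to 33.1 in untreated ATF6aKO cells, 17.0 to 26.5 at 12 h and 22.3 to 25.9 at 24 h. In ATF6aWT cells it was 36.2 to 39.4 untreated, 18.9 to 19.4 at 12 h and 21.5 to 22.5 at 24 h. Their part in the fall of mmu-let-7i was not tested.

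Between 12 h and 24 h no member passed the test in either genotype. In ATF6aKO cells 0 of 9 were called, beside 2.29% of all miRNAs (limma). At an unadjusted p under 0.05, 0 of 9 passed, beside 18 of all 175. Without replicate 1 at 12 h, which leaves 1 array in that group, the change of mmu-let-7e was 0.62 and that of mmu-let-7i was 0.43. With all arrays in, all 9 members had a higher mean at 24 h than at 12 h, by 0.12 to 0.35. Within scanning run 3 the changes were -0.20 to 0.12, with 3 of 9 above 0, and within run 4, which holds the outlying 12 h array, they were 0.28 to 0.67, with all 9 above 0. In ATF6aWT cells 0 of 9 were called, beside 1.14% of all, with none at an unadjusted p under 0.05, beside 20 of all 175 (limma). The changes were -0.32 to 0.15 within run 3 and -0.07 to 0.31 within run 4. For mmu-let-7i in ATF6aWT cells the 24 h value was above the 12 h value by 0.15 in run 3 and by 0.30 in run 4 (mean 0.22, SE 0.14, limma adjusted p = 0.596).

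The genotype comparisons ask whether ATF6a sets the level of these miRNAs. In untreated cells 0 of 9 members differed, beside 28% of all miRNAs, and none passed unadjusted, beside 60 of all 175 (limma). The most negative difference was that of mmu-let-7c, which had -1.42 and -1.15 in ATF6aKO cells and -1.02 and -0.88 in ATF6aWT cells (difference -0.34, SE 0.24, limma adjusted p = 0.379); it was -0.40 within run 1 and -0.27 within run 2. mmu-let-7i was lower by 0.29 (SE 0.14, 95% interval -0.61 to 0.03, limma adjusted p = 0.193), with -0.30 within run 1 and -0.28 within run 2. Neither group pair overlapped, which is no sign of a difference, as the share of such pairs among all miRNAs is not given. The difference of mmu-let-7i passed with either ATF6aKO 12 h array left out (adjusted p = 0.0311, limma). Over all members the differences were -0.40 to 0.22 in run 1 and -0.28 to 0.25 in run 2.

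After 12 h of tunicamycin 0 of 9 members differed between the genotypes, beside 7.43% of all, and after 24 h 0 of 9, beside 9.71% (limma). None passed unadjusted at either time, beside 32 of all 175 miRNAs at 12 h and 37 at 24 h. At 12 h the differences ran from -0.10 to 0.53 within run 3 and from -0.84 to -0.10 within run 4, with all 9 below 0 there. At 24 h they ran from -0.23 to 0.43 within run 3 and from -0.43 to 0.26 within run 4. mmu-let-7e was lower in ATF6aKO than in ATF6aWT cells in both runs at both times, by 0.10 and 0.84 at 12 h and by 0.23 and 0.43 at 24 h. Relative to the family it was lower by 0.42 at 12 h and by 0.42 at 24 h (SE 0.10 each, limma adjusted p = 0.0453 and 0.0354), 1 of 9 members called at each time beside 9.71% of all at 12 h and 13.7% at 24 h. Within runs 3 and 4 the family-relative differences were -0.33 and -0.51 at 12 h and -0.44 and -0.39 at 24 h. These calls were each kept in 1 of 4 other ways of computing the values on this scale, and in 0 of 12 fits that left out an array at 12 h and in 4 of 12 at 24 h. With an ATF6aKO 12 h array left out, mmu-let-7g passed at 24 h (0.35, adjusted p = 0.00821, limma). Leaving out replicate 2 of that group also let it pass at 12 h (0.54, adjusted p = 0.00546), and leaving out replicate 1 let mmu-let-7e pass there (-0.78, adjusted p = 0.0286). mmu-let-7i did not pass after treatment, with differences of 0.06 (95% interval -0.27 to 0.38) at 12 h and 0.05 (-0.27 to 0.38) at 24 h.

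The difference between the genotypes in their response was tested directly, as the response in ATF6aKO cells minus that in ATF6aWT cells. At 12 h 0 of 9 members passed, beside 9.71% of all miRNAs, and at 24 h 0 of 9, beside 13.1% (limma). None passed unadjusted at either time, beside 37 of all 175 miRNAs at 12 h and 47 at 24 h. Relative to the family 0 of 9 passed at either time. Unadjusted, 34 of all 175 miRNAs passed on that scale at 12 h and 36 at 24 h, a share close to that of the members, of which 2 of 9 passed at each time. These were mmu-let-7e (-0.46) and mmu-let-7i (0.39) at 12 h (limma adjusted p = 0.156 for both), and mmu-let-7e (-0.45, adjusted p = 0.167) and mmu-let-7c (0.40, adjusted p = 0.199) at 24 h. For mmu-let-7i the fall was smaller in ATF6aKO cells by 0.35 at 12 h (SE 0.19, limma adjusted p = 0.357) and by 0.34 at 24 h (SE 0.19, adjusted p = 0.322). Computed within replicate numbers, which share scanning runs, it was 0.56 and 0.13 at 12 h and 0.50 and 0.19 at 24 h. Without the outlying ATF6aKO 12 h array the difference at 12 h passed (0.56, limma adjusted p = 0.0268), and so did that of mmu-let-7g (0.48, adjusted p = 0.0145); without the other array of that group mmu-let-7d passed (-0.61, adjusted p = 0.0325). For mmu-let-7e the difference was -0.51 at 12 h (SE 0.30, limma adjusted p = 0.410) and -0.37 at 24 h (SE 0.30, adjusted p = 0.526), with -0.06 and -0.96 within replicate numbers at 12 h and -0.18 and -0.55 at 24 h. So the rise of mmu-let-7e past the threshold in ATF6aWT cells alone is not shown to depend on the genotype. Over all members these values ran from -0.06 to 0.62 for replicate 1 and from -0.96 to 0.13 for replicate 2 at 12 h, and from -0.18 to 0.70 and -0.55 to 0.27 at 24 h. The treatment comparisons of a genotype share their untreated arrays, and the changes at 12 h and 24 h are therefore not independent of each other.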

How the data were processed

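Total RNA was read on 12 one-colour Agilent mouse miRNA arrays, 2 for each of 6 groups named by the labels. The authors deposited processed intensity values for each spot. Agilent Feature Extraction, version 10.7.1.1, made them, per the submitters' processing notes, and per the file headers they are background-subtracted and not scaled between arrays. A deposited table of log2 values matched log2 of the software's summed signal wherever it held one. The build used to design the array is not given in the sources used here.

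Control and outlier spots were left out (3 to 21 of the 180 member spots per array), and no spot was saturated. The remaining signals of each probe were averaged and divided by the array's 75th percentile over 87 probes well above background (in over 0.5 of their spots) on all arrays. A floor of 0.0309 (the lowest scaled signal above background on an array, taken as the median of the 12) was set, and log2 was taken. Probes above background on each array of 1 or more groups were averaged per miRNA, giving 175. limma 3.58.1 in R 4.3.3 fitted the 6 group means (6 residual degrees of freedom, 1.16 prior). Adjustment was by Benjamini-Hochberg for each of the 11 comparisons, at a threshold of 0.05. The fit was tested on simulated data. Tables were made with pandas 2.3.3 in Python 3.11.15. With 2 arrays a group, the number of arrays limits the precision.

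Members and lists were chosen with earlier results of these data known. Every member was named, with passenger strands, cluster partners and, by root-mean-square difference, the 5 closest miRNAs. Alternatives covered scaling, background correction, floor, filters, probe choice, blocks and single arrays left out; the scaling on the family was added after the data were seen. The normexp correction took the median spot signal, as a mean signal column is not among those used here.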

Additional observations from a re-analysis of the deposited data

Results flagged for a closer look

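mmu-let-7g was flagged because its treated arrays at 24 h lay on opposite sides of the untreated ones in the genotypes. Such separation is no sign of a change, as its share among all miRNAs is not given. Both treated ATF6aKO arrays (-1.69 and -1.75) lay above both untreated ones (-1.84 and -1.79), while both treated ATF6aWT arrays (-2.12 and -2.01) lay below theirs (-1.89 and -1.85). The response in ATF6aKO cells minus that in ATF6aWT cells was 0.29 (log2, SE 0.26), which did not pass the test of the difference itself (limma adjusted p = 0.554). With either ATF6aKO 12 h array left out the difference passed (0.29, SE 0.080, limma adjusted p = 0.0457). Relative to the family the ATF6aKO change of mmu-let-7g was -0.0013, with overlapping arrays, and the difference was 0.20 (limma adjusted p = 0.407). The response difference first given was 0.38 for replicate 1 and 0.20 for replicate 2. A probe of mmu-let-7g was not well above background on 1 of the ATF6aWT 24 h arrays, and its part in the difference was not tested.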

How the results depend on the processing

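Over 25 alternative settings mmu-let-7i kept its direction in all 4 treatment comparisons, and its call was kept in 20 (ATF6aKO 12 h), 17 (ATF6aKO 24 h), 22 (ATF6aWT 12 h) and 22 (ATF6aWT 24 h) of them. mmu-let-7e kept its direction in ATF6aWT cells and its call in 12 at 12 h and 16 at 24 h. mmu-let-7b at 24 h in ATF6aWT cells was reversed in the deposited table (-0.0819), which was fitted without scaling between arrays. The 75th percentile used for scaling elsewhere was 380 and 177 on the ATF6aWT 24 h arrays and 373 and 418 on the untreated ATF6aWT arrays. The cause of the lost calls and of this reversal was not tested.

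The number of members called, 1, 1, 2 and 3 in ATF6aKO 12 h, ATF6aKO 24 h, ATF6aWT 12 h and ATF6aWT 24 h, changed as follows. It was 0 in all 4 with scaling on all probes, quantile normalization or the deposited table. The summed signal gave 0, 0, 1 and 1, normexp 0 in ATF6aKO 24 h and 1 and 1 in ATF6aWT, no floor 1 in ATF6aWT 12 h, no filter on dim probes 1 and 1 in ATF6aWT, and the brightest probe 0 in ATF6aKO 24 h. Of all 175 miRNAs the summed signal called 5, 6, 17 and 17, normexp 5, 5, 7 and 8, and no floor 20, 14, 38 and 40. The brightest probe called 27, 15, 76 and 66 of 175, and no filter on dim probes 14, 19, 49 and 49 of 650. Fitting only the groups compared gave 0 in ATF6aKO 12 h, 4 in ATF6aWT 12 h and 1 for the untreated genotypes. Of all 175 miRNAs that way of fitting called 0 in ATF6aKO 12 h and 79 in ATF6aWT 12 h. Scaling on the family gave 2 in ATF6aKO 24 h, 4 in ATF6aWT 12 h, 4 in ATF6aWT 24 h and 1 for the genotypes at 12 h and at 24 h.

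The median change of the members moved most with scaling. On all probes it was -1.38 and -0.58 in ATF6aKO cells at 12 h and 24 h, -0.43 in ATF6aWT at 12 h, 0.80 and 0.82 between times in ATF6aKO and ATF6aWT, 0.50, -0.29 and -0.29 between genotypes untreated, at 12 h and at 24 h, and -0.76 and -0.79 for the response difference. Quantile normalization gave -0.54 in ATF6aKO 12 h, -0.11 in ATF6aWT 12 h, 0.84 and 0.47 between times and -0.0948 for the 24 h response difference. The summed signal gave -0.33 and -0.0349 in ATF6aKO and -0.18 and -0.12 in ATF6aWT cells. The deposited table gave -0.28 in ATF6aKO 24 h, -0.35 in ATF6aWT 24 h, -0.22 and -0.58 between times, and 0.51, 0.26 and 0.71 between genotypes.

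With each array left out in turn, a group is left with 1 array, and the number of calls over all miRNAs moved as well. Counts of members called in those fits are no result about the family, and only the medians of the members are given. Medians ran -0.29 to 0.30 (ATF6aKO 12 h), -0.0272 to 0.32 (ATF6aWT 24 h), -0.0913 to 0.53 (between times, ATF6aKO), -0.27 to 0.27 (genotypes, 12 h), -0.33 to 0.12 and -0.14 to 0.25 (response differences).

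The labels' replicate numbers say nothing of shared batches, though the scanning runs follow them. Over the 7 pairs of groups on the same slide, replicate differences correlated from 0.74 to 0.94. Over the 8 pairs on different slides the correlations were -0.66 to -0.45. A replicate block shared by both slides cannot take up differences that turn sign between them, so calls kept with it are no support. With the replicate block and the array scaling first described the counts were the same and no call of a member changed, and limma adjusted p of mmu-let-7i was 0.00512 and 0.0181 in ATF6aKO cells and 0.00105 and 0.00214 in ATF6aWT cells at 12 h and 24 h. On the family scale the block added 4 calls of members, giving 2 in ATF6aKO 12 h, 6 in ATF6aWT 12 h and 5 in ATF6aWT 24 h in place of 1, 4 and 4. The share of all miRNAs called in that fit is not given here. The low signal of mmu-miR-98 on run 4 limits what can be said of it.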
